A study of Mus musculus with 12 samples.

Results

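Mbp, Pmp22, Prx and S100b are genes of the Schwann cell, the glial cell that wraps the axons of peripheral nerves. They were taken by name, as 4 genes of the 36008 listed in the expression table, and all 4 were found by symbol. RNA-seq libraries were made from 2 hind limb muscles, gastrocnemius and quadriceps, of 6 female mice that were 30 weeks old when the experiment began. The labels give the strain as C57BL/6 and the study's methods give BALB/c, and the data used here do not settle which is right. Mice M02, M03 and M08 stayed on the ground at the Kennedy Space Center, in the same housing hardware as mice M11, M12 and M20, which spent 9 weeks on the International Space Station. All 6 received injections of phosphate-buffered saline every 2 weeks, as the control arm of a drug study. Carcasses were frozen, and the muscles were dissected after thawing. Each muscle gave 1 library a mouse, so the 4 groups (ground gastrocnemius, flight gastrocnemius, ground quadriceps and flight quadriceps) hold 3 libraries each, and both muscles of a mouse are in the data. The values are TPM, a transcript's share of its library scaled for transcript length, which carries no sequencing depth. The libraries list between 18172 and 21265 genes above 0, with the fewest in the ground quadriceps of M08.

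Muscle is supplied by motor and sensory nerve branches, and their Schwann cells are the main source of myelin in the tissue. Compact myelin is built from a few abundant proteins that hold the membrane layers together, and Schwann cells depend on contact with the axon to keep making them. Mbp joins the cytoplasmic faces of the layers, Pmp22 is a membrane protein whose gene dosage underlies inherited neuropathies, and Prx is a scaffold linking the myelin sheath to the basal lamina. S100b is a calcium-binding protein of Schwann cells that adipocytes also make.

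The 4 genes ranked the mice alike in the gastrocnemius, as described below, and the promoters of 3 of them, Pmp22, Prx and S100b, are shown from RefSeq (GRCm38.p6). That of Mbp is not shown. Each is the stretch upstream of the start, 5′ to 3′ on the plus strand: Pmp22 at chr11:63128732-63128981 (the most upstream of its 4 promoters), Prx at chr7:27499074-27499304 and S100b at chr10:76253586-76253835. Capitals mark GGAATG or its reverse complement CATTCC, the letters that Tead factors bind.
Pmp22: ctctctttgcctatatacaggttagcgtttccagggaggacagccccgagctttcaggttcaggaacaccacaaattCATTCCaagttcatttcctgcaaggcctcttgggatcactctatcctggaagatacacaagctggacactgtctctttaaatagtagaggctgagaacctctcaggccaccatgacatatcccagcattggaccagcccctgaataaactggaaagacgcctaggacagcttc
Prx: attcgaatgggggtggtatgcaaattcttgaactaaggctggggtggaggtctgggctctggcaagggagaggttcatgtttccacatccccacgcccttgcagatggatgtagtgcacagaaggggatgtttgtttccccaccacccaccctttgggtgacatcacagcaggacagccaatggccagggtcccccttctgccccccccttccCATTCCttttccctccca
S100b: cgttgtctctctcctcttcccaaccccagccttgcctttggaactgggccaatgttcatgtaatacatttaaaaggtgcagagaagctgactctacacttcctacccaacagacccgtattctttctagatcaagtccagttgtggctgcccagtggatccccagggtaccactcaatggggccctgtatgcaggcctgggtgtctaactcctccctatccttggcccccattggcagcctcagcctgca
GGAATG was found in Pmp22 and Prx and not in S100b, and 12.6% of the 32851 promoters in the table hold it within 250 bases upstream. The Sox motifs ACAAAG and ACAATG were in none of the 3 windows and in 16.5% and 10.7% of all promoters. The Egr core GTGGGCG was in none of the 3 and in 7.02% of all promoters. Both strands were searched. These matches describe letters in these windows and no more.

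Mbp, on chromosome 18 (82475146 to 82585637 of GRCm38), had a TPM of 60.0, 57.4 and 39.0 in the ground gastrocnemius of M02, M03 and M08. In the flight gastrocnemius of M11, M12 and M20 it was 47.7, 87.2 and 78.3 TPM. The ranges overlapped, since M11 lay between the ground values and the other flight libraries lay above them. In the quadriceps, Mbp was 18.5, 16.4 and 12.3 TPM on the ground and 14.1, 11.6 and 18.3 TPM after flight, and the ground and flight ranges again overlapped. All 6 quadriceps libraries were below all 6 gastrocnemius libraries. In bulk muscle, fewer Schwann cells and less RNA per cell cannot be told apart.

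Pmp22, on chromosome 11, had a TPM of 52.2, 49.8 and 33.4 in the ground gastrocnemius and 38.5, 68.8 and 62.9 in the flight gastrocnemius. In the quadriceps it was 22.3, 18.8 and 15.4 TPM on the ground and 16.2, 14.7 and 20.9 TPM after flight. The muscles did not overlap, and within each muscle the ground and flight libraries did. M08 was the lowest ground library in both muscles, and M12 was the highest flight library in the gastrocnemius and the lowest in the quadriceps.

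Prx, on chromosome 7, had a TPM of 13.6, 12.8 and 9.38 in the ground gastrocnemius and 10.99, 18.2 and 17.6 in the flight gastrocnemius. In the quadriceps it was 4.92, 4.68 and 3.16 TPM on the ground and 3.27, 3.67 and 4.65 TPM after flight. Its libraries split by muscle with no overlap and did not split by flight.

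S100b, on chromosome 10, was the least abundant of the 4. Its TPM was 4.86, 4.45 and 2.55 in the ground gastrocnemius and 3.17, 5.87 and 5.05 in the flight gastrocnemius. In the quadriceps it was 2.63, 2.05 and 1.95 on the ground and 1.15, 2.19 and 1.90 after flight. The ground gastrocnemius of M08 lay at the level of the quadriceps of M02, so the muscles overlapped on the ground and not after flight. S100b exceeded 5 TPM in 2 of 12 libraries, both flight gastrocnemius, so it passed the filter on low values only through a group where it was high.

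**Figure D1:**
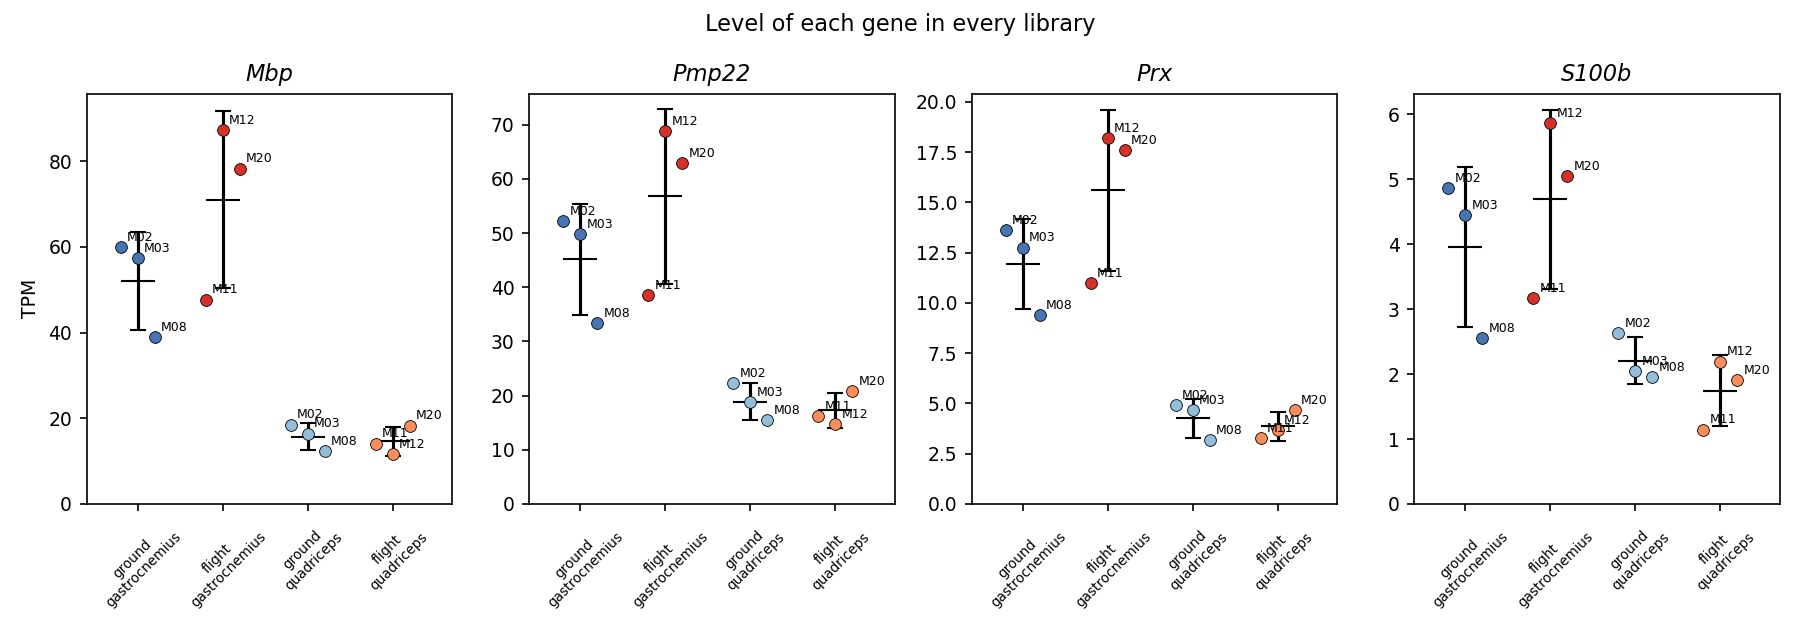
TPM of each gene in each of the 12 libraries, by group, with the mean (bar) and SD of 3 mice. Mbp, Pmp22 and Prx separate by muscle, and the ground and flight libraries of a muscle overlap.

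The first comparison asked whether flight changed these genes within a muscle. None of the 4 was called in the gastrocnemius, where limma called 24 of 10481 genes (0.229%) at an adjusted p under 0.05 and over 1.5-fold, on log2(TPM + 1). At an unadjusted p under 0.05, 1580 genes passed (893 higher, 687 lower) and none of the 4 did. Mbp was 0.42 higher on the log2 scale (SE 0.25, limma adjusted p 0.458, 95% interval -0.15 to 0.99), with a mean of 52.1 ± 11.4 TPM on the ground and 71.1 ± 20.7 after flight (SD, n = 3). Pmp22 was 0.31 higher (SE 0.25, limma adjusted p 0.582, interval -0.26 to 0.88). Prx was 0.35 higher (SE 0.21, limma adjusted p 0.468, interval -0.14 to 0.83). S100b was 0.20 higher (SE 0.25, limma adjusted p 0.740, interval -0.39 to 0.79). In all 4 genes M11 lay among the ground libraries and M12 and M20 lay above them.

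In the quadriceps limma called 3 of 10481 genes (0.0286%) and none of the 4, of which none had an unadjusted p under 0.05 against 1136 of all genes (593 higher, 543 lower). The log2 difference of flight from ground for Mbp was -0.10 (SE 0.20, limma adjusted p 0.883, interval -0.58 to 0.38). For Pmp22 it was -0.12 (SE 0.17, limma adjusted p 0.837), for Prx -0.10 (SE 0.20, adjusted p 0.878) and for S100b -0.24 (SE 0.23, adjusted p 0.733). The 4 values were positive in the gastrocnemius and negative in the quadriceps, and some signs turned when 1 library was left out: S100b in the gastrocnemius was -0.021 without M08, Mbp in the quadriceps was 0.018 without M02 and 0.045 without M12, and Pmp22 there was 0.0041 without M02. Mbp in the gastrocnemius ran from 0.23 without M08 to 0.68 without M11. The difference between the muscles was tested with the mouse as a block, and limma called 0 of 10481 genes (0%), with 534 at an unadjusted p under 0.05. Prx was 1 of those 534, at a difference of -0.45 (SE 0.18, limma adjusted p 0.957), and the others were -0.52 for Mbp, -0.43 for Pmp22 and -0.44 for S100b. With each mouse left out the difference of Mbp ran from -0.76 to -0.21.

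The second comparison set the quadriceps against the gastrocnemius, 2 muscles of the same mice. On the ground 3 of the 4 genes were called lower, against 61 of 10481 genes (0.582%) called lower overall. The 4 genes and the lists below were chosen with earlier results of these data known, so counts of their calls are descriptions. At an unadjusted p under 0.05, limma had 2904 of the 10481 genes (27.7%) between the muscles on the ground, 2459 higher and 445 lower in the quadriceps, and 2575 (24.6%) after flight, 2096 higher and 479 lower. Mbp differed by -1.66 on the log2 scale (SE 0.20, limma adjusted p 0.0112), Prx by -1.30 (SE 0.19, adjusted p 0.0158) and Pmp22 by -1.21 (SE 0.20, adjusted p 0.0196). S100b differed by -0.60 (SE 0.24, limma adjusted p 0.155), which did not pass the threshold. After flight the same 3 were called lower, against 43 of 10481 genes (0.410%). Mbp differed by -2.18 (SE 0.25, limma adjusted p 0.0179), Prx by -1.75 (SE 0.21, adjusted p 0.0197) and Pmp22 by -1.63 (SE 0.23, adjusted p 0.0275). S100b differed by -1.04 (SE 0.25, limma adjusted p 0.0702) and had no overlap between muscles. With the mouse as a replicate block, S100b after flight had a limma adjusted p of 0.0487, a description since it was over 5 TPM only in the flight gastrocnemius, and the other 3 genes remained called in both comparisons. Prx, like S100b, was over 5 TPM only in the gastrocnemius, so its place among the genes tested rests on that muscle. Its calls in both counts are therefore descriptions.

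These calls depended on single libraries and on the filter. By limma, the ground calls of Mbp, Pmp22 and Prx ended without the gastrocnemius of M02 (adjusted p 0.0578, 0.0872 and 0.0800), the gastrocnemius of M03 (0.0518, 0.0790 and 0.0692) or the quadriceps of M03 (0.0505, 0.0741 and 0.0571), and with no filter (0.09998, 0.161 and 0.119). By limma, the calls after flight ended without the gastrocnemius of M12 (0.0774, 0.109 and 0.0976), the gastrocnemius of M20 (0.0870, 0.111 and 0.0952), the quadriceps of M11 (0.0884, 0.107 and 0.0974) or the quadriceps of M12 (0.0678, 0.0895 and 0.0783), and with no filter (0.162, 0.183 and 0.161). Those of Pmp22 (0.0714) and Prx (0.0525) also ended without the quadriceps of M20. The log2 difference of Mbp stayed between -1.85 and -1.50 on the ground and between -2.44 and -2.01 after flight when each library was left out in turn.

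Within each mouse the gastrocnemius exceeded the quadriceps for all 4 genes, in 6 of 6 mice. The share of all genes with that pattern was not computed, so the count is a description. The ratio of the 2 TPM values for Mbp was 3.24, 3.50 and 3.16 in ground mice M02, M03 and M08 and 3.39, 7.52 and 4.28 in flight mice M11, M12 and M20. For Pmp22 it was 2.34, 2.65 and 2.17 on the ground and 2.38, 4.67 and 3.01 after flight. M12 had the highest ratio for Mbp, Pmp22 and Prx, with 4.96 for Prx. The ratio of S100b ran from 1.31 in M08 to 2.77 in M11.

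**Figure D2:**
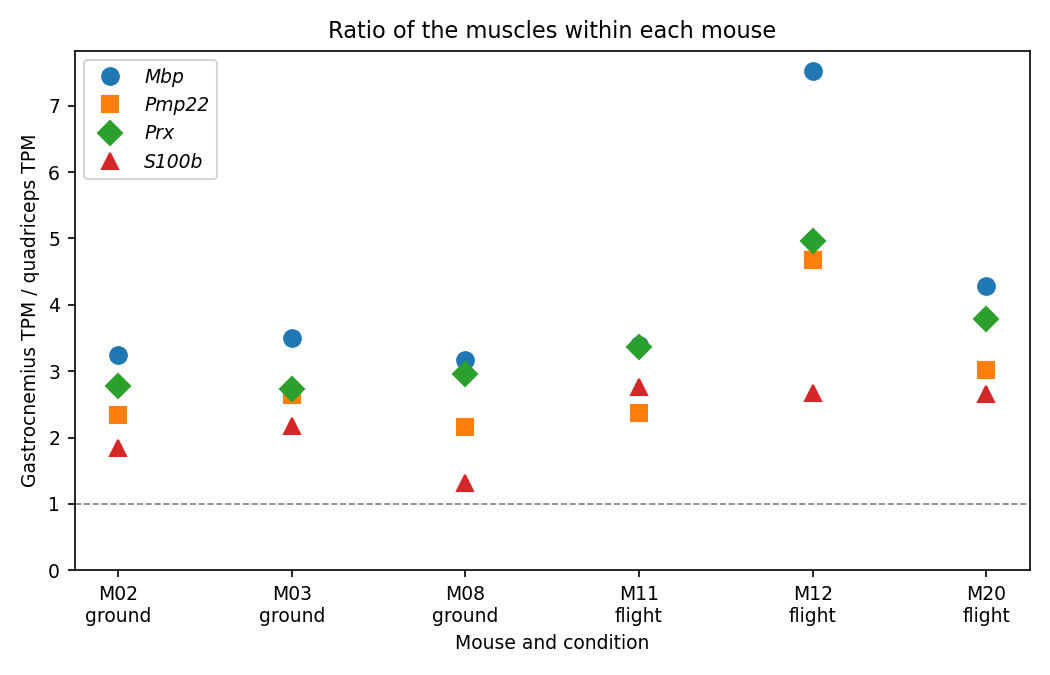
Ratio of gastrocnemius to quadriceps TPM in each mouse, 1 symbol for each gene, dashed line at 1. All 24 ratios lie above 1, and the ratio of Mbp in flight mouse M12 stands highest at 7.52.

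The ratio of Pmp22 to Mbp, both in TPM and so per length, was 0.789 to 0.871 in the 6 gastrocnemius libraries and 1.14 to 1.27 in the 6 quadriceps libraries, with no overlap. S100b stood at 0.0645 to 0.0811 of Mbp in the gastrocnemius and 0.0814 to 0.189 in the quadriceps. Prx stood at 0.209 to 0.240 of Mbp in the gastrocnemius and 0.232 to 0.317 in the quadriceps, which overlapped. No test was run on these ratios. Fibroblasts and endothelium are known to make Pmp22, and the summed TPM of 10 endothelium markers was 227, 235, 228, 261, 196 and 202 in the gastrocnemius of M02, M03, M08, M11, M12 and M20 and 203, 189, 217, 225, 149 and 189 in the quadriceps. Their most abundant gene was Egfl7, and no marker of the list was at 0 throughout. The sum was higher in the gastrocnemius of all 6 mice, as were 3 of the 10 genes, with no share of all genes computed. Between the muscles limma called 0 of the 10, with 9 below 0 in the quadriceps in each condition and medians of -0.09 on the ground and -0.16 after flight. Of these, 2 on the ground and 1 after flight had an unadjusted p under 0.05 (smallest limma adjusted p 0.0546 and 0.0941). Over all 10481 genes, 445 and 479 were lower at that threshold. For flight, 0 of the 10 passed it in either muscle. The part of endothelium in the Pmp22 level was not tested.

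Across the 6 gastrocnemius libraries all 4 genes ranked the mice in the same order: M12, M20, M02, M03, M11 and M08 from highest to lowest. Pearson's r of log2(TPM + 1) over the 6 pairs of genes ran from 0.942 (Prx and S100b) to 0.996 (Mbp and Prx). Without the 2 mice farthest from the median it ran from 0.835 to 0.998. In the 6 quadriceps libraries Mbp and Pmp22 also ranked the mice alike, with r of 0.981. Prx had r of 0.859 with Mbp and 0.891 with Pmp22, and S100b had r of 0.250 with Mbp, 0.415 with Pmp22 and 0.603 with Prx. Without the 2 farthest mice the quadriceps values of S100b were 0.886 with Mbp, -0.0364 with Pmp22 and 0.173 with Prx, so they rest on few mice. Ground and flight mice are pooled in these values, and the genes share each library and its composition, so they are given as descriptions.

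A list of 17 peripheral myelin genes, which includes Mbp, Pmp22 and Prx, held 11 that passed the filter on low values. Among these, limma called 6 lower in the quadriceps on the ground and 8 after flight, none higher. Over all 10481 genes, 61 (0.582%) and 43 (0.410%) were called lower. The median log2 differences of the 11 were -1.08 and -1.36, against 0.12 and 0.11 over all genes tested. Of the 11 tested, 6 (Prx, Pmp2, Mal, Cldn19, Drp2 and Ncmap) were over 5 TPM only in gastrocnemius libraries, and so entered the test only through the muscle where they were high. They made up 4 of the 6 calls on the ground and 6 of the 8 after flight, so the counts and medians are descriptions. Drp2 had a TPM of 9.86, 9.76 and 7.58 in the ground gastrocnemius and 3.93, 3.82 and 3.46 in the ground quadriceps. After flight it was 7.60, 14.5 and 12.8 TPM in the gastrocnemius and 3.06, 2.90 and 4.14 TPM in the quadriceps. The muscles did not overlap. Drp2, a dystrophin relative that binds Prx at the outer Schwann cell membrane, differed by -1.08 (SE 0.14, limma adjusted p 0.0112) and -1.50 (SE 0.24, adjusted p 0.0343). Mal, a lipid raft protein, differed by -1.21 (limma adjusted p 0.0377) and -1.36 (0.0295), and Ncmap, a small myelin membrane protein, by -0.93 (0.0230) and -1.34 (0.0402). Pmp2, a fatty acid carrier of myelin, and the tight junction protein Cldn19 were called after flight (-1.98 and -1.29, limma adjusted p 0.0399 and 0.0402) and not on the ground (-1.08 and -0.67, 0.129 and 0.110), and limma called neither in the test of the difference (adjusted p 0.968 and 0.957). Mag, the adhesion protein of the axon-facing membrane, differed by -0.25 and -0.08 with overlapping muscles (limma adjusted p 0.575 and 0.838). With the mouse as a replicate block the counts were 5 and 5. The counts of 6 and 8 came to 0 with no filter and to 0 without the gastrocnemius of M02 or M03 or the quadriceps of M03 on the ground, and without the gastrocnemius of M12 or M20 or the quadriceps of M11 or M12 after flight. Without the quadriceps of M20 the count after flight was 1. Without the gastrocnemius of M02, limma called 0 of all genes on the ground. The ground call of Drp2 ended without the gastrocnemius of M02 (0.0631) or M03 (0.0571) or the quadriceps of M03 (0.0528), that of Ncmap without any of the gastrocnemius libraries or the quadriceps of M03 (0.0722 to 0.0888), and that of Mal without any 1 of the 6 libraries (0.0537 to 0.138), by limma adjusted p. After flight the calls of Drp2, Mal, Ncmap, Pmp2 and Cldn19 ended without any 1 library other than the gastrocnemius of M11 (0.0864 to 0.144). By limma, the ground call of Mal also ended with rescaling (0.0540) and no trend (0.0583), and that of Ncmap with a pseudocount of 5 (-0.48, under 1.5-fold) and the mouse block (0.0591). After flight those of Ncmap, Pmp2 and Cldn19 also ended with the mouse block (0.0540, 0.0515 and 0.0532), rescaling (0.0574, 0.0574 and 0.0554) and no trend (0.0550, 0.0550 and 0.0533), by limma adjusted p. That of Pmp2 ended with a pseudocount of 0.1 (0.0572) and that of Drp2 with no trend (0.0543). Over all 17 genes, 13 were higher in the gastrocnemius of all 6 mice and 0 were lower in all 6. The share of all genes with that pattern was not computed, so these counts are descriptions.

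**Figure D3:**
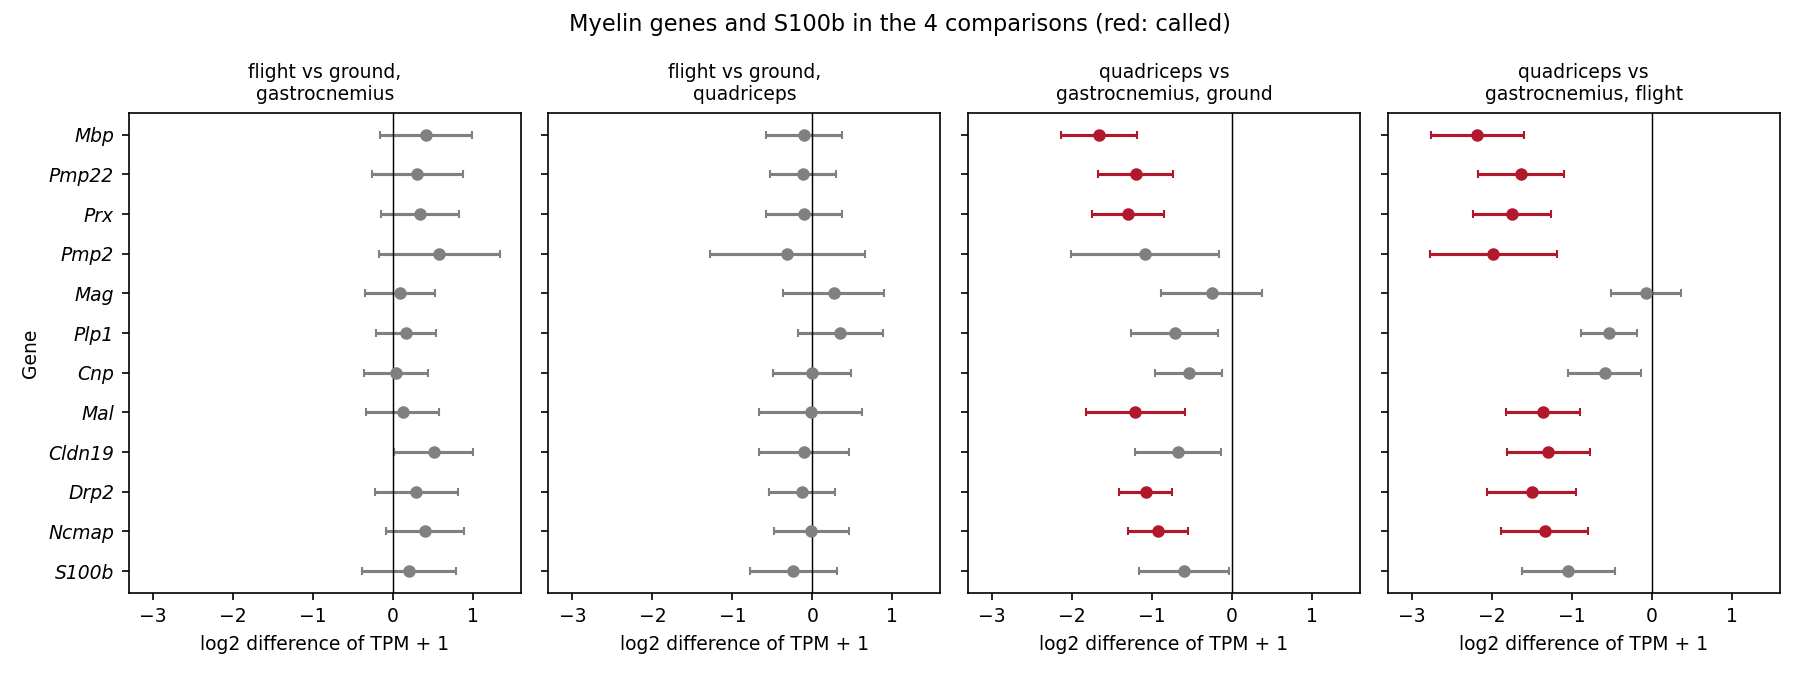
Log2 difference of TPM + 1 with 95% interval for the 11 myelin genes tested and S100b in 4 comparisons (points, red where called). With flight every interval reaches 0 except that of Cldn19 in the gastrocnemius, and 6 myelin genes on the ground and 8 after flight were called lower in the quadriceps.

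Within each muscle, flight against ground called 0 of the 11 myelin genes tested, with 1 at an unadjusted limma p under 0.05 in the gastrocnemius, Cldn19 (0.51, SE 0.21, adjusted p 0.321), and 0 in the quadriceps. Over all 10481 genes, 1580 passed that threshold in the gastrocnemius and 1136 in the quadriceps. Cldn19 and Pmp2 were over 5 TPM only in flight gastrocnemius libraries and so were tested only because they were high there. The median log2 difference of the 11 was 0.31 in the gastrocnemius, with 11 of 11 above 0, and -0.10 in the quadriceps, with 2 of 11 above 0, against 0.02 and 0.01 over all genes. Over all 10481 genes, 5614 were above 0 in the gastrocnemius and 5453 in the quadriceps. Cldn19 and Pmp2 are among the 11, and the 11 genes share each library, so these counts and medians are descriptions.

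Of 18 genes of Schwann cell identity, S100b among them, 10 passed the filter. Between the muscles 6 of the 10 were lower in the quadriceps and 4 higher on the ground, with a median log2 difference of -0.03, and 5 were lower and 5 higher after flight, with a median of -0.16. Over all 18 genes, 9 were higher in the gastrocnemius of all 6 mice and 0 were lower in all 6, with no share of all genes computed. Art3 alone had means of 116 and 120 TPM in the ground gastrocnemius and quadriceps and 148 and 161 after flight. The summed TPM of the 18 genes, which rests largely on Art3, had means of 229 and 226 in the ground gastrocnemius and quadriceps and 286 and 285 after flight. Flight called 0 of them in either muscle, with 4 in the gastrocnemius and 2 in the quadriceps at an unadjusted limma p under 0.05, all higher after flight, where 893 and 593 of all 10481 genes were higher. Of the 10, S100b, Scn7a, Matn2 and Kcna1 were over 5 TPM only in the flight gastrocnemius and were tested only through it, so these counts and medians, by flight and by muscle, are descriptions. Sema3b had a TPM of 11.8, 11.3 and 12.2 in the ground gastrocnemius and 6.38, 4.95 and 4.65 in the ground quadriceps. After flight it was 10.3, 15.3 and 13.5 in the gastrocnemius and 6.69, 2.96 and 4.80 in the quadriceps, with no overlap between the muscles. Sema3b, a secreted guidance factor, was called lower in the quadriceps on the ground (-1.02, SE 0.13, limma adjusted p 0.0112) and after flight (-1.31, SE 0.25, adjusted p 0.0486). By limma, its ground call ended without the gastrocnemius of M02 (adjusted p 0.0614) or M03 (0.0535) or the quadriceps of M03 (0.0528), and with no filter (0.0703). Its call after flight ended without the gastrocnemius of M12 (0.162) or M20 (0.158) or the quadriceps of M11 (0.0974), M12 (0.0953) or M20 (0.132), and with the mouse as a replicate block (0.0622), rescaling (0.0614), no trend (0.0744), a pseudocount of 0.1 (0.0558) or no filter (0.253). The master regulator Sox10, whose TPM was 3.69, 4.002 and 1.95 in the ground gastrocnemius and 1.34, 1.79 and 0.871 in the ground quadriceps, did not reach 5 TPM in any library and was not tested. After flight it was 3.44, 4.85 and 4.74 TPM in the gastrocnemius and 1.70, 2.53 and 1.99 TPM in the quadriceps, and the muscles did not overlap in either condition. Egr2, the zinc finger factor that drives myelination, was also below the filter. Its TPM was 0.814, 0.996 and 0.915 in the ground gastrocnemius and 1.503, 1.87 and 1.93 in the flight gastrocnemius. Its libraries did not overlap by flight in the quadriceps either, where it was 0.696, 0.312 and 0.529 TPM on the ground and 0.833, 0.744 and 0.857 TPM after flight. Sox10 and Egr2 were singled out after their values were seen and are given with no test. The share of all genes whose groups did not overlap was not computed, so these separations are descriptions of low values.

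Of 15 genes of repair and non-myelinating Schwann cells, 4 passed the filter, and limma called 0 in any of the 5 comparisons. At an unadjusted p under 0.05 limma had 1, higher in the quadriceps after flight, where 24.6% of all 10481 genes passed. Of 16 genes of axon to Schwann cell signalling and the basal lamina, 11 passed it and 0 were called, with medians of -0.17 on the ground and -0.11 after flight between the muscles. At an unadjusted p under 0.05, limma had 2 lower and 1 higher on the ground and 3 lower and 1 higher after flight, beside the shares of all genes given above. For flight it had 0 lower, with 2 higher in the gastrocnemius and 1 in the quadriceps (medians 0.07 and 0.03), where 893 and 593 of all 10481 genes were higher. Of the 11, Lgi4 and Adam22 were over 5 TPM only in gastrocnemius libraries, and Lgi4, 1 of the 2 higher, only in those of flight mice. Of 15 node and paranode genes 9 passed it, and limma called 1 lower in the quadriceps each time: Cadm4, an adhesion molecule of the Schwann cell surface facing the axon (-0.91, adjusted p 0.0287, and -1.42, adjusted p 0.0275). Cadm4 was over 5 TPM only in gastrocnemius libraries, so it entered the test only through the muscle where it was high. By limma, its ground call ended without the gastrocnemius of M02 (adjusted p 0.116), M03 (0.0897) or M08 (0.0633) or the quadriceps of M02 (0.0618) or M03 (0.0665), and with the mouse as a replicate block (0.0581), no filter (0.110) or a pseudocount of 5 (-0.47, under 1.5-fold). Its call after flight ended without the gastrocnemius of M12 (0.120) or M20 (0.112) or the quadriceps of M11 (0.101), M12 (0.0895) or M20 (0.0714), and with no filter (0.161). At an unadjusted p under 0.05, limma had 2 node genes higher and 2 lower in the quadriceps on the ground and 3 higher and 2 lower after flight, with medians of -0.08 and 0.07, beside the same shares of all genes. Among the higher ones were Mpp6 (0.50, limma adjusted p 0.0170, and 0.46, adjusted p 0.0898) and Cadm1 (0.53, adjusted p 0.117, and 0.52, adjusted p 0.0888). For flight, the gastrocnemius had 3 node genes higher and 0 lower at that threshold and the quadriceps 1 and 0, with medians of 0.13 and 0.22 and 0 called by limma. Of 12 axon and neuron transcripts, 10 stayed under 1 TPM in all libraries, with Chat and Slc18a3 at 0 throughout, and 0 passed the filter. The others were Stmn2, at 1.35 to 2.703 TPM, and Uchl1, at 0.252 to 3.74 TPM. Of 7 oligodendrocyte genes, markers of the cell that makes Mbp in the brain, 5 stayed under 1 TPM and Olig2 was at 0 throughout. Their most abundant gene was Aspa, at a mean of 5.61 TPM.

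Markers of other cells were summed in each library, with no test of the sums. The summed TPM of 10 muscle fiber markers, led by Myh4, was 84585, 86731 and 83092 in the ground gastrocnemius and 105693, 109442 and 102185 in the ground quadriceps. After flight it was 88452, 86629 and 85034 in the gastrocnemius and 112746, 106462 and 112267 in the quadriceps. The quadriceps had the higher sum in every library, with 0 of 10 called at over 1.5-fold by limma in either condition. At an unadjusted p under 0.05, limma had 5 higher and 0 lower in the quadriceps on the ground and 6 higher and 3 lower after flight, beside the same shares of all genes. Of the 10, 3 were higher and 5 lower in the gastrocnemius of all 6 mice, with no share of all genes computed. For flight limma called 0, with 3 higher and 2 lower in the gastrocnemius and 1 higher and 2 lower in the quadriceps at that threshold. Over all 10481 genes, 893 were higher and 687 lower in the gastrocnemius, and 593 and 543 in the quadriceps. The summed TPM of 8 fibroblast markers, led by Gsn, was 456, 561 and 458 in the ground gastrocnemius and 621, 642 and 499 in the ground quadriceps, which overlapped. After flight it was 484, 552 and 470 in the gastrocnemius and 585, 672 and 628 in the quadriceps, and 1 of 8, Dpt, was called higher in the quadriceps each time by limma (0.69, adjusted p 0.0458, and 0.67, adjusted p 0.0355). The call of Dpt ended on the ground without any 1 library other than the quadriceps of M08 (0.0760 to 0.159) and after flight without any 1 of the 6 (0.0527 to 0.131). By limma, both calls also ended with rescaling (0.0899 and 0.0714), no trend (0.0757 and 0.0554), no filter (0.267 and 0.161) and a pseudocount of 5 (0.56 and 0.56, under 1.5-fold), and the ground call with mean TPM above 1 (0.0567). No marker of these lists was at 0 throughout. Their part in the lower quadriceps values was not tested. Rescaling the libraries by median-of-ratios factors moved the median of all genes from 0.12 to 0.03 on the ground and the difference of Mbp from -1.66 to -1.75.

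Adipocytes, a further source of S100b, were marked by 10 genes led by Car3. Its mean over the 12 libraries was 546 TPM, so the sums of the 10 rest largely on it, and the cells it came from were not tested. The summed TPM of the 10 was 1257, 1210 and 1025 in the ground gastrocnemius and 1026, 870 and 867 in the flight gastrocnemius. In the quadriceps it was 1377, 1147 and 971 on the ground and 818, 697 and 833 after flight, with no overlap there. Of 9 tested, limma called 0 for flight in either muscle. In the quadriceps 8 were lower at an unadjusted p under 0.05, with a median log2 difference of -1.08 and 9 of 9 below 0 (smallest limma adjusted p 0.244). In the gastrocnemius 2 were lower, with a median of -0.33 and 8 of 9 below 0 (smallest limma adjusted p 0.0963). Over all 10481 genes, 543 were lower in the quadriceps and 687 in the gastrocnemius at that threshold. On the ground 1 of 9, Fabp4, was called higher in the quadriceps (0.89, limma adjusted p 0.0354), which ended without any of the gastrocnemius libraries or the quadriceps of M03 (0.0824 to 0.111), and with rescaling (0.0783), no trend (0.0697) or no filter (0.253). At an unadjusted p under 0.05, limma had 6 higher and 2 lower there, and the median log2 difference of the 9 was 0.90, with 7 of 9 above 0. Car3, which leads the sums, differed the other way on the ground (-0.42, limma adjusted p 0.0524). After flight limma called 0 of the 9 between the muscles, with 0 higher and 1 lower at an unadjusted p under 0.05. Their median was then -0.04, with 4 above 0 and 5 below. Over all 10481 genes, 2459 were higher and 445 lower on the ground at that threshold, and 2096 and 479 after flight. No adipocyte marker was at 0 throughout, and their part in the S100b level was not tested.

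The remaining lists had 0 genes called by limma in any of the 5 comparisons. They had 1 of 8 perineurium and endoneurium markers tested, 3 of 6 tendon markers, 5 of 8 macrophage markers, 5 of 5 blood markers, 1 of 5 satellite cell markers and 9 of 15 genes of the neuromuscular junction and denervation. Between the muscles on the ground, 1 was higher and 1 lower at an unadjusted limma p under 0.05 among the 9 junction genes, 1 was higher among the macrophage markers, and the 1 perineurium marker tested, Itgb4, was lower (-0.86, adjusted p 0.115). After flight 1 junction gene and 1 macrophage marker were higher and 1 tendon marker was lower at that threshold. For flight, 1 junction gene in the gastrocnemius, and 2 junction genes and Itgb4 in the quadriceps, were higher at that threshold. The share of all 10481 genes at that threshold was 27.7% on the ground and 24.6% after flight between the muscles. For flight it was 15.1% in the gastrocnemius and 10.8% in the quadriceps.

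**Figure D4:**
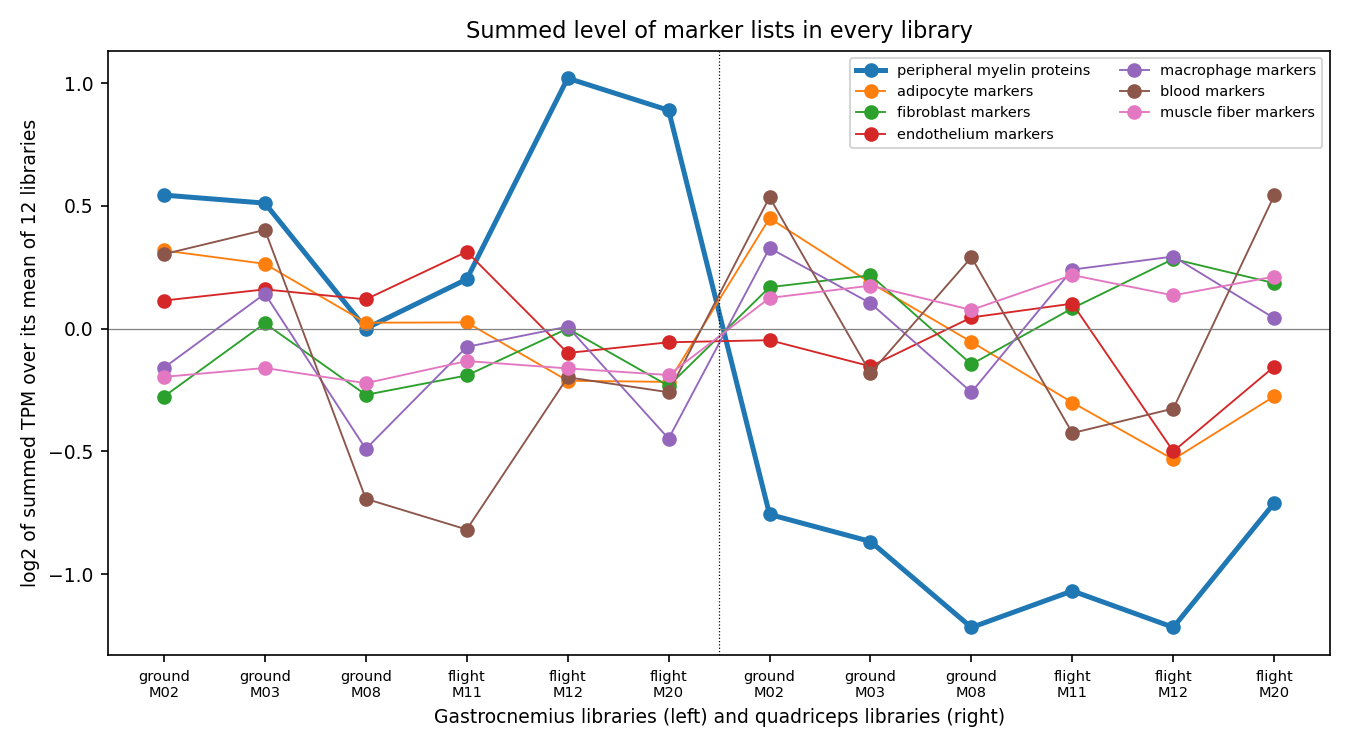
Log2 of the summed TPM of each marker list over its mean of 12 libraries, gastrocnemius left and quadriceps right. The myelin sum lies at its mean in the ground gastrocnemius of M08, above it in the other gastrocnemius libraries and below it in all 6 quadriceps libraries, a wider range than the other lists drawn.

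Over the 12 libraries, the genes whose log2(TPM + 1) was most like that of Mbp included Drp2 (Pearson's r 0.993) and Cadm4 (0.982). For Pmp22 they included Drp2 (0.992) and Cldn19 (0.978), and for Prx Drp2 (0.990) and Cadm4 (0.989). The genes most like S100b were Csrp1 (0.953), Slc38a3 (0.945) and Zfp703 (0.938), followed by Shank3 (0.936) and the endothelium marker Tie1 (0.935). Drp2 (0.928) and Cadm4 (0.924) ranked 6 and 8 for S100b. Tie1 ranked 8 for Pmp22 (0.956). These 12 points include both muscles, whose separation enters each r, and the values are descriptions.

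Splicing was read from junction reads of the same libraries, which the tables list by position and not by mouse. The tables do not name the groups in their columns. They were read as ground first and flight second, from the order in their titles and the sign of the study's PSI changes beside the deposited inclusion differences. Every ground and flight value of PSI rests on that reading. Of the 4 genes only Mbp had a listed event, the skipped exon at chr18:82561778-82561855 of mm10, 78 bases long and numbered 2 in the 5 annotated transcripts that hold it. PSI, the share of transcripts that include it, was 0.136, 0.206 and 0.137 in the ground gastrocnemius (50, 41 and 29 reads) and 0.154, 0.245 and 0.146 in the flight gastrocnemius (30, 61 and 59 reads). Most gastrocnemius transcripts skipped the exon, and the groups overlapped (difference 0.0216, exact permutation p 0.5, n = 3). In the quadriceps PSI was 0.0857, 0.0769 and 1 on the ground (19, 7 and 18 reads) and 0.161, 0.538 and 0.231 after flight (18, 10 and 16 reads). One ground sample included the exon in all 18 reads and the other 2 skipped it in most, and the difference of flight from ground was -0.0774 (exact permutation p 1, n = 3). Leaving out each sample in turn moved it from -0.233 to 0.229. The smallest p that 3 against 3 allows is 0.1.

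**Figure D5:**
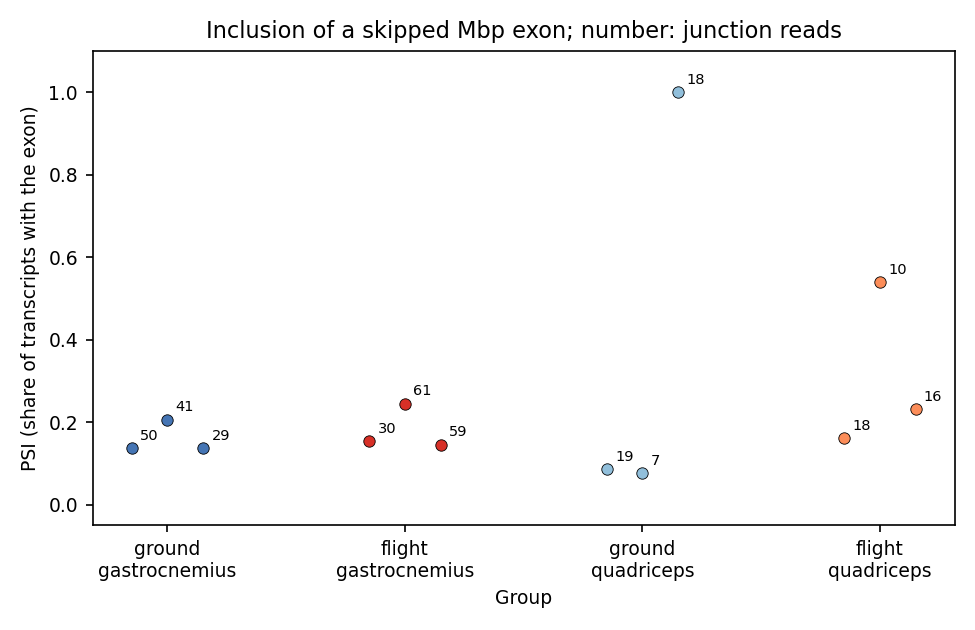
PSI of the skipped Mbp exon in the 3 samples of each group, with the junction reads beside each point. The 6 gastrocnemius samples lie between 0.136 and 0.245, and the third ground quadriceps sample lies at 1 with 18 reads.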

How the data were processed

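The libraries were polyA-selected, stranded and single-end with reads of 50 bases. The authors aligned reads to mm10 with STAR 2.7.1a and quantified them with kallisto 0.46.0, and the deposited values are TPM for 36008 gene IDs, of which 152 have no symbol. TPM carries no depth, and the read depth of the libraries was not used here. The splicing tables hold junction counts deposited by the authors, and their p-values and FDR were not used here. The sign of their inclusion differences was used only to read the order of the groups.

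Log2(TPM + 1) was fitted with limma 3.58.1 (R 4.3.3, trended empirical Bayes, Benjamini-Hochberg) for 10481 genes above 5 TPM in at least 1 library. A gene was called at adjusted p under 0.05 and over 1.5-fold. The difference of the flight effect between the muscles used a mouse block and adjusted p alone. PSI was recomputed from junction counts and effective lengths, with an exact permutation test. Tables used Python 3.11.15, pandas 2.3.3 and numpy 2.4.6, and figures matplotlib 3.10.9. The fits were tested on simulated data.

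Named genes were the 4 members, every called gene of 17 lists, up to 4 genes of a list with the highest mean TPM and up to 3 with the largest log2 difference at unadjusted p under 0.05, and genes from the 3 closest to each member by Pearson's r. One gene was left out of the lists after the results were seen and is not reported here. Of other cell types, the most abundant marker and markers at 0 were named. Shank3 and Tie1 were also named, because they ranked above Drp2 for S100b. Members and lists were chosen with earlier results of these data known. Each mouse gave 1 library per muscle. Deviations from group means within a mouse had r of 0.0943, 0.0142, 0.163, 0.333, 0.179 and -0.119, so the pairing was uneven. Alternatives were another pseudocount, no filter, a filter on mean TPM, rescaling, no trend, all libraries in 1 fit, a replicate block and leaving out each library.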

Additional observations from a re-analysis of the deposited data

How the results depend on the processing

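With 3 mice a group, the muscle differences of Mbp, Pmp22 and Prx kept their direction under all settings and not their calls. TPM does not say how many reads lie behind a value. The cause of a change was not tested. With no filter both the fit and the adjustment took in 36008 genes, and a left-out library leaves 2 in its group.

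Genes called for flight in the gastrocnemius (24) came to 4 with no filter, 5 with no trend, and 1 to 133 with each library left out. In the quadriceps (3) they came to 1 with a pseudocount of 5, 1 with rescaling, 1 with no trend, and 1 to 4 with each library left out. For the difference (0) they came to 11 with no filter, and 0 to 1 with each library left out. The numbers in the titles do not pair ground with flight mice: deviations had r of -0.143, 0.111 and 0.00287 in the gastrocnemius and -0.139, -0.0653 and -0.180 in the quadriceps. With these numbers as a replicate block, 0 genes were called in the gastrocnemius and 0 in the quadriceps.

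Genes called between the muscles on the ground (232) came to 149 with a pseudocount of 5, 26 with no filter, 115 with rescaling (59 higher, 56 lower, against 171 and 61), 139 with no trend, and 0 to 220 with each library left out. After flight (174) they came to 7 with no filter, 65 with rescaling (33 higher, 32 lower, against 131 and 43), 59 with no trend, 320 with all 12 libraries in 1 fit, and 12 to 280 with each library left out. Myelin genes called came to 0 with no filter and 0 to 5 with each library left out on the ground (6). After flight (8) they came to 0 with no filter, 5 with rescaling, 4 with no trend, 5 with the mouse as a replicate block (paired), and 0 to 9 with each library left out.

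With no filter the log2 differences were unchanged on the ground, -1.66 for Mbp, -1.21 for Pmp22 and -1.30 for Prx (limma adjusted p 0.09998, 0.161 and 0.119), and after flight, -2.18, -1.63 and -1.75 (0.162, 0.183 and 0.161). With each library left out, Mbp ran from -1.85 to -1.50 on the ground and from -2.44 to -2.01 after flight. Pmp22 ran from -1.40 to -1.08 and from -1.88 to -1.47. Prx ran from -1.45 to -1.14 and from -1.97 to -1.63. S100b ran from -0.82 to -0.46 and from -1.25 to -0.87. S100b after flight, -1.04, was called with all 12 libraries in 1 fit (limma adjusted p 0.0275), with the mouse as a replicate block (paired, 0.0487) and without the gastrocnemius of M11 (0.0473). It passed the filter only through 2 flight gastrocnemius libraries, the high side of that comparison, so these calls are descriptions. The mouse block gave 198 genes called on the ground and 168 after flight and ended no call of a member.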

Other observations

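The third ground quadriceps sample in the splicing tables, which list samples by position and not by mouse, included the Mbp exon in 18 of 18 reads. The other ground quadriceps samples included it in 3 of 19 and 1 of 7 reads. The third sample also lay apart in some events of other genes and not in others. Its PSI was 0.147 for mutually exclusive exons of Mpp6, against 0.587 and 0.535 in the other ground quadriceps samples. For mutually exclusive exons of Ank3 it was 0 against 0.247 and 0.254, and for a skipped Ank3 exon 0.617 against 0.714 and 0.629.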
